A study of Danio rerio with 4 samples.

Results

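The genes described here are 10 enzymes of sterol synthesis, *hmgcs1*, *hmgcra*, *idi1*, *fdps*, *sqlea*, *lss*, *msmo1*, *nsdhl*, *sc5d* and *dhcr7*. They were taken by symbol from the authors' deposited table of 19143 genes, in which all 10 have a row. RNA-seq compared whole zebrafish larvae at 4 dpf, without treatment, in 2 pools of *nlrc3l* st73 homozygous mutants and 2 pools of siblings, which were heterozygous or wild-type at *nlrc3l*. A pool held 10 or 12 larvae, and mutants were picked for a lack of neutral red-stained microglia and siblings for normal microglia, so each library mixes every tissue of the larva and the presence of microglia was part of the sorting. For each gene the table gives a baseMean, which is the average over the 4 libraries of counts divided by size factors, and a log2 fold change (mutants over siblings) with a standard error. Single libraries were not analysed here, and any spread between pools enters only through that standard error. Each genotype's mean, called the implied mean here, was derived by splitting the baseMean according to the fold change. In whole larvae, less RNA per cell and fewer cells of a type cannot be told apart. The mutated gene *nlrc3l* was at -0.68 on the log2 scale (standard error 0.24, adjusted p = 0.0719 from DESeq2's estimates), which did not pass the limit of 0.05.

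Animal cells build cholesterol from acetyl-CoA in a chain that runs through mevalonate and isoprenoid units to squalene, then closes squalene into lanosterol and trims the ring system. Most genes of the chain share the transcription factor SREBP-2, which is held in the endoplasmic reticulum when sterols are plentiful and released when they are scarce. The reductase that makes mevalonate is the main point of control and the target of statins, and in mammals its protein is degraded when sterols accumulate. Cholesterol is a part of every cell membrane, and in the liver it is also the starting material of bile acids.

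Of the 10 enzymes, *hmgcra* was lower in *nlrc3l* mutants and the other 9 did not pass the test. A gene was called at a Benjamini-Hochberg adjusted p of 0.05 or less over all 19143 genes, from a two-sided normal test of the DESeq2 estimates. By this rule 1 of 10 enzymes was lower, where 2.02% of all genes were, and 0 of 10 were higher, where 2.95% of all genes were. With the added limit of a 1.5-fold change that the study used, *hmgcra* still passed, as did 0.59% of all genes in that direction. In a test against a fold change of 1.5 itself no enzyme was called, and 0.225% of all genes were. At an unadjusted p of 0.05 or less, *hmgcra* and *nsdhl* passed, 2 of the 10, against 13.3% of all genes. The log2 fold change was below 0 for 8 of the 10 enzymes, against 49.9% of all genes. Its median was -0.095, against 3.0e-04 for all genes. For 8 of the 10 its normal limits spanned 0. Among lists described below, it was below 0 for 18 of 18 neuron, 23 of 23 intestine and 13 of 16 skin markers, and 8 of 10 fatty acid synthesis genes. It was below 0 for 7 of 16 regulators, 4 of 16 isoprenoid branch genes and 6 of 15 myelin and glia markers. The lean below 0 was thus not particular to the enzymes, and the count of signs was not tested.

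**Figure D1:**
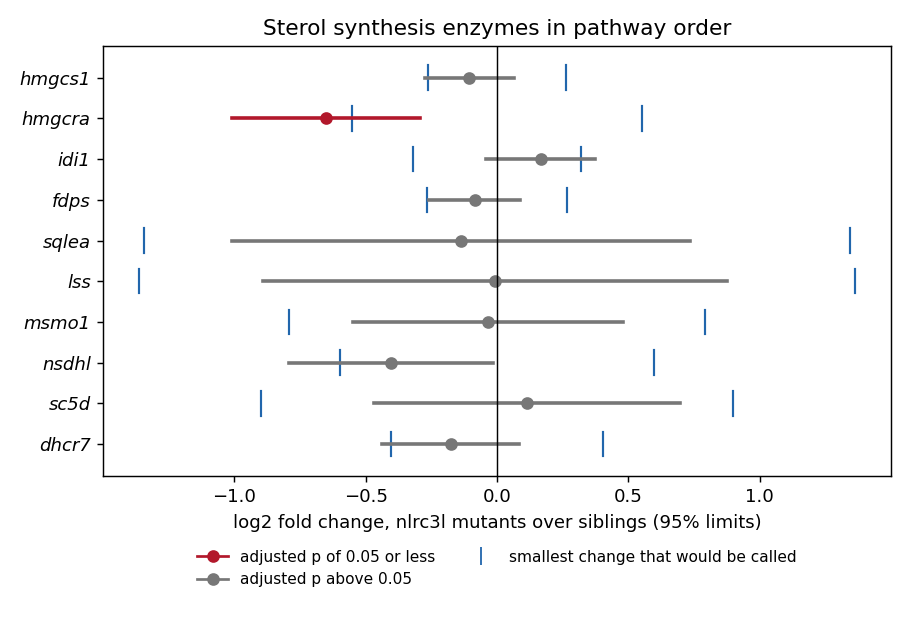
Log2 fold change of *nlrc3l* mutants over siblings (x axis) for the 10 enzymes in pathway order from top to bottom. Points are estimates, bars are 95% normal limits, and blue marks show the smallest change either way that would have been called; only *hmgcra*, at -0.65, lies past its mark.

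The chain begins with *hmgcs1*, which encodes the synthase that makes HMG-CoA. It was measured at an implied mean of 335 normalized counts in mutants and 361 in siblings, a log2 fold change of -0.11 (95% limits -0.28 to 0.065, adjusted p = 0.717 from DESeq2's estimates). Its standard error of 0.087 was among the smallest of the 10, and a fall to 0.834 of the sibling level would have been called.

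HMG-CoA reductase, which turns HMG-CoA into mevalonate, is encoded by *hmgcra* (ENSDARG00000052734). Its implied mean was 53.9 normalized counts in mutants and 84.7 in siblings. On the log2 scale the change was -0.65 (standard error 0.18, adjusted p = 0.0112 from DESeq2's estimates), with 95% limits of -1.01 to -0.29. The mutant level was thus 0.636 of the sibling level, with limits of 0.496 to 0.816. By p-value *hmgcra* was rank 631 of the 19143 genes, and 1.11% of all genes had a lower log2 fold change. The call rests on the normal null of the deposited statistic, whose robust SD across genes was 1.19 where a standard normal gives 1. With the statistic centred at its median and scaled by that SD, the adjusted p of *hmgcra* was 0.0799 and no enzyme was called. Over the 7 alternatives tried it ran from 0.00917 to 1, and the call was lost in 4 of them, including Student's t, which called no gene at all.

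Zebrafish have another reductase gene, *hmgcrb*, whose implied mean was 328 normalized counts in mutants and 324 in siblings. The log2 fold change of *hmgcrb* was 0.019 (limits -0.15 to 0.19, adjusted p = 0.974 from DESeq2's estimates). The change of *hmgcra* lay 0.67 below that of *hmgcrb* on the log2 scale, with 95% limits of the difference from -1.07 to -0.27. Against the other 9 enzymes, the limits of the difference stayed below 0 for only 5. Against *nsdhl* they ran from -0.78 to 0.28. These limits take the errors of the genes as independent, although the genes share the 4 libraries. The reductase genes were set side by side after the values were known, and reads that both could share were not examined. Neither the summed counts of the reductases nor their protein was tested.

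Farther along the mevalonate part, *idi1* encodes the isomerase that interconverts the isoprenoid building blocks. It averaged an implied 282 normalized counts in mutants and 252 in siblings, with a log2 fold change of 0.17 (limits -0.040 to 0.37, adjusted p = 0.559 from DESeq2's estimates), the highest estimate of the 10. The farnesyl diphosphate synthase gene *fdps*, at the branch to sterols, dolichol and ubiquinone, averaged 352 in mutants and 374 in siblings, with a log2 fold change of -0.085 (limits -0.26 to 0.087). For *hmgcs1*, *idi1* and *fdps* the limits lay within a 1.5-fold change either way.

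**Figure D2:**
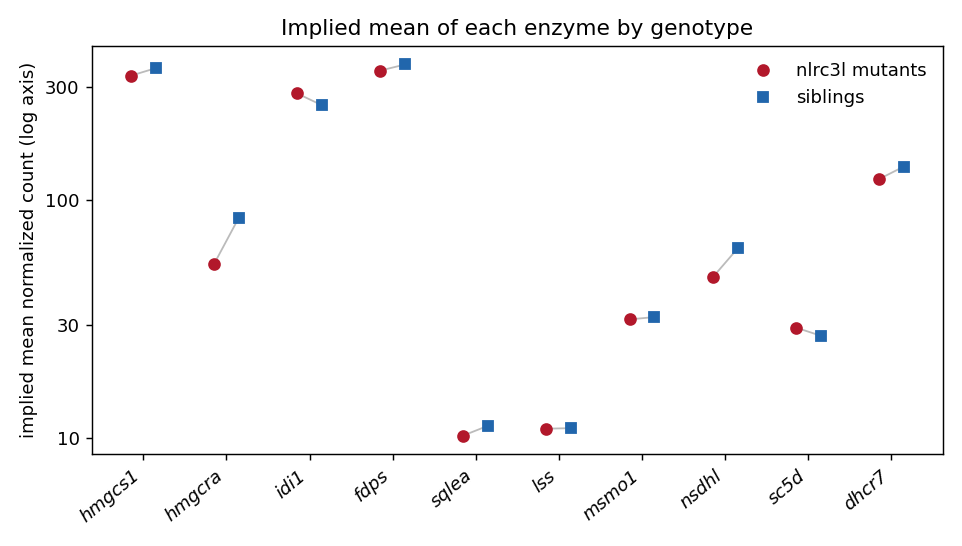
Implied mean normalized count (y axis, log scale) of each enzyme in *nlrc3l* mutants (circles) and siblings (squares), derived by splitting its baseMean by the fold change, with no error shown. The widest step is that of *hmgcra*, with 53.9 in mutants and 84.7 in siblings, and the next is that of *nsdhl*, with 47.5 and 62.8.

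Squalene epoxidase, encoded by *sqlea*, and lanosterol synthase, encoded by *lss*, open the ring part of the chain. Both were close to the lower end of the table, whose lowest baseMean is 9.18. The implied mean of *sqlea* was 10.2 normalized counts in mutants and 11.3 in siblings, and its log2 fold change was -0.14 (limits -1.01 to 0.73). That of *lss* was 10.9 in mutants and 11.0 in siblings, with a log2 fold change of -0.0074 (limits -0.89 to 0.88). At this depth *sqlea* would have been called only at a fall to 0.394 of the sibling level or a rise to 2.54 times it, and a change of the size of *hmgcra* was not detectable in either gene.

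The ring is then demethylated and reduced. The methylsterol monooxygenase gene *msmo1* averaged an implied 31.6 normalized counts in mutants and 32.3 in siblings, a log2 fold change of -0.032 (limits -0.55 to 0.48). The dehydrogenase gene *nsdhl*, which acts with *msmo1* in removing methyl groups, averaged 47.5 in mutants and 62.8 in siblings. Its log2 fold change of -0.40 (limits -0.79 to -0.016) had an unadjusted p of 0.0412 and an adjusted p of 0.339 from DESeq2's estimates, so it was not called. The mutant level of *nsdhl* was 0.756 of the sibling level, and a level of 0.660 would have been needed for a call.

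The last steps are covered by *sc5d*, a desaturase, and *dhcr7*, the reductase whose human gene is mutated in Smith-Lemli-Opitz syndrome. The desaturase gene averaged an implied 29.2 normalized counts in mutants and 27.0 in siblings, with a log2 fold change of 0.11 (limits -0.47 to 0.70). The reductase gene averaged 123 in mutants and 139 in siblings, with a log2 fold change of -0.18 (limits -0.44 to 0.084, adjusted p = 0.671 from DESeq2's estimates). The median log2 fold change was -0.085 over the 6 ring enzymes and -0.095 over the 4 mevalonate enzymes.

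The enzymes were thus read with very unequal precision. Their baseMean ran from 10.8 to 363, and their standard errors ran from 0.087 to 0.45, against a median of 0.14 over all genes. Counting noise alone, computed from the implied means, would give standard errors only slightly smaller, since the deposited ones were 1.01 times that value for *nsdhl* and 1.19 times for *idi1*, the lowest and highest ratios of the 10. The 95% limits stayed within a 1.5-fold change either way for 5 enzymes, *hmgcs1*, *idi1*, *fdps*, *msmo1* and *dhcr7*. For *sqlea*, *lss* and *sc5d* they spanned 0 and reached past a 1.5-fold change. A fall to 0.636 of the sibling level, the estimate of *hmgcra*, would not have been called in *sqlea*, *lss*, *msmo1* or *sc5d*. A call needed a fall to 0.577 for *msmo1* and to 0.536 for *sc5d*.

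**Figure D3:**
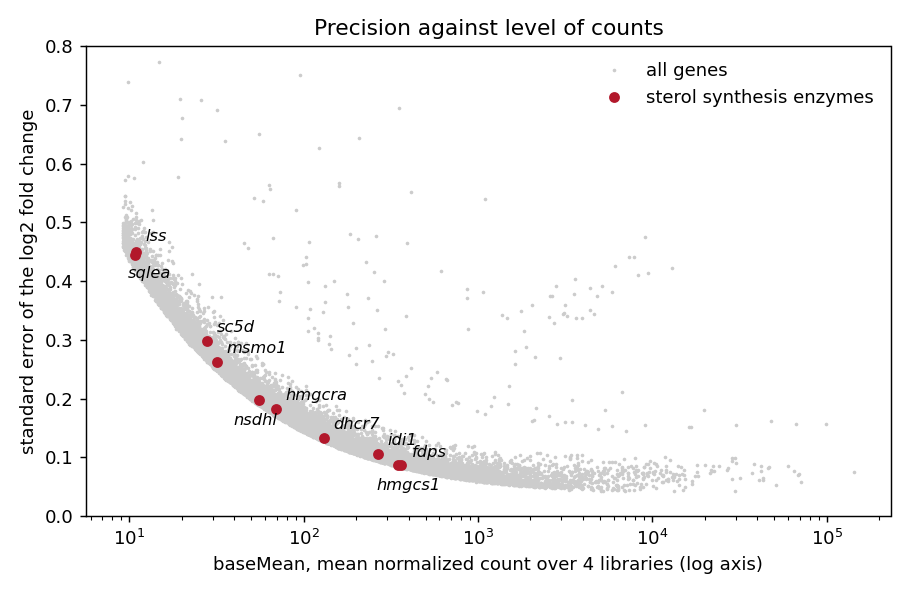
Standard error of the log2 fold change (y axis) against baseMean (x axis, log scale) for all genes (grey; 8 lie above the axis) and the 10 enzymes (red, named). The enzymes run along the lower band of genes, from *lss* and *sqlea* at standard errors of 0.45 and 0.44 to *hmgcs1* and *fdps* at 0.087 and 0.088.

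Other genes of the chain came from lists of the mevalonate steps (11 genes with a row) and the sterol ring steps (13 genes with a row). Outside the 10 enzymes and *tm6sf2*, they held 13 genes. The median log2 fold change of the 13 was -0.10. The gene *tm6sf2*, described below, was left out by name. It passed both of the limits that follow, so the counts over the 13 depend on leaving it out. At an adjusted p of 0.05 from DESeq2's estimates 0 of the 13 were lower or higher, against 2.02% and 2.95% of all genes. At an unadjusted p of 0.05, 1 of the 13 passed, against 13.3% of all genes. That gene was *acat2*, the thiolase that feeds the chain, at -0.26 (limits -0.47 to -0.050). The highest was the decarboxylase gene *mvda*, at 0.36 (limits -0.051 to 0.77), and the lowest was the isomerase gene *ebp*, at -0.53 (limits -1.10 to 0.037). The list of ring steps held 1 called gene, *tm6sf2*, at -0.62 (standard error 0.16, adjusted p = 0.00378 from DESeq2's estimates). It is a relative of *ebp* that is known in mammals for lipoprotein secretion by the liver rather than as an enzyme of the chain.

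Regulators of the chain did not pass the test in either direction. Of 16 genes, which include *srebf2*, *scap*, *insig1* and the proteases that release SREBP, 0 were called and 0 had an unadjusted p of 0.05 or less from DESeq2's estimates, and their median was 0.018 on the log2 scale. The gene of SREBP-2 itself, *srebf2*, was at -0.086 (limits -0.27 to 0.099), and *insig1*, a sterol-dependent anchor of SREBP, was at 0.013 (limits -0.17 to 0.20). The lowest was *scap*, the escort of SREBP, at -0.27 (limits -0.67 to 0.14), and the highest was *mbtps2*, a protease gene, at 0.18. Of 14 sterol uptake and transport genes 0 were called, and 2 had an unadjusted p of 0.05 or less, with a median of 0.0044. Over all genes 2.02% were called lower, 2.95% were called higher and 13.3% had an unadjusted p of 0.05 or less. The LDL receptor gene *ldlra*, another target of SREBP-2 in mammals, was at 0.035 (limits -0.17 to 0.24). The ends of the list were *mylipb*, a gene for a ligase that in mammals degrades the LDL receptor, at -0.36 and *ldlrap1b*, an LDL receptor adaptor gene, at 0.38, and neither passed. The 16 genes of the non-sterol isoprenoid branch, which makes ubiquinone, dolichol and prenyl anchors, had a median of 0.048 with 0 called and 0 at an unadjusted p of 0.05 or less, from *pdss2*, a gene of ubiquinone side chain synthesis, at -0.14 to *coq2*, also of ubiquinone synthesis, at 0.24.

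**Figure D4:**
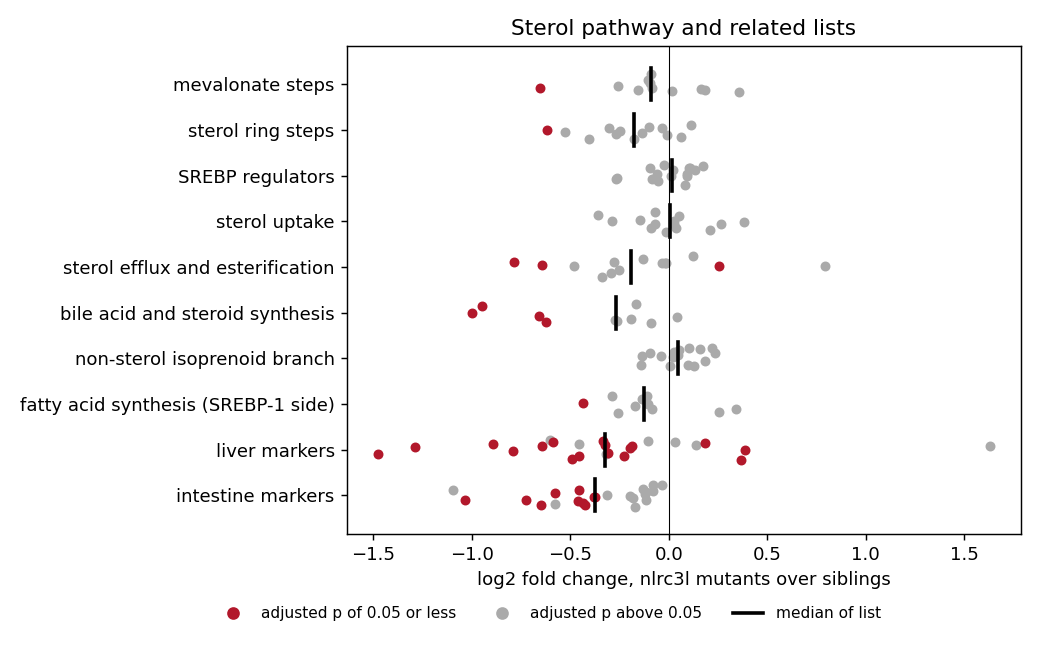
Log2 fold change of *nlrc3l* mutants over siblings (x axis) for each gene of the sterol chain, of related lists and of liver and intestine markers. Red points have an adjusted p of 0.05 or less, grey points do not, and black bars are medians, which run from -0.38 for intestine markers to 0.048 for the isoprenoid branch.

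Genes that use or dispose of cholesterol held more calls. A list of bile acid and steroid synthesis genes, which also holds the bile salt export pump gene *abcb11b*, had 18 symbols, 10 of them with a row. Of these 10 genes 4 were lower, *abcb11b* among them, and 0 higher, where 2.02% of all genes were lower. The median of the list was -0.27 on the log2 scale. An unadjusted p of 0.05 or less was reached by 5 of the 10, against 13.3% of all genes. Bile acids are made in the liver, and of 24 liver markers 14 were lower and 3 higher in the same libraries (median -0.32), whose part in these calls was not tested. The gene of the rate-limiting enzyme of bile acid synthesis, *cyp7a1*, had an implied mean of 126 normalized counts in mutants and 244 in siblings, a difference of -0.95 on the log2 scale (standard error 0.12, adjusted p = 4.61e-12 from DESeq2's estimates). The sterol hydroxylase gene *cyp8b1* fell by 0.66 on the log2 scale, and the bile salt export pump gene *abcb11b* fell by 1.00, to 42.7 in mutants against 85.5 in siblings. The sterol hydroxylase gene *cyp27a2*, listed in the table under an older clone name, was at -0.62, with an adjusted p of 0.0108, or 0.0780 when the statistic was scaled by its robust SD (0.00882 to 1 over all alternatives). The steroidogenic gene *star* was the highest of the list, at 0.043.

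Over all genes 2.02% were lower and 2.95% higher. An unadjusted p of 0.05 or less was reached by 13.3% of all genes and by 4 of 14 efflux and esterification genes. Of these 14 genes 2 were lower and 1 was higher, with a median of -0.19. Those that were lower were *soat2*, a sterol acyltransferase gene, at -0.64 (adjusted p = 0.0196) and *abcg5*, a sterol exporter gene, at -0.78 (adjusted p = 0.0429), both from DESeq2's estimates. With the statistic scaled by its robust SD these adjusted p-values were 0.116 and 0.193. They ran from 0.0161 to 1 over the 7 alternatives for *soat2*. For *abcg5* they ran from 0.0428 to 1 over 6, since the baseMean minimum left it out. The apolipoprotein gene *apoeb* was higher, at 0.25. It is also on the list of macrophage and microglia markers, where the same row is counted again. The largest estimate was that of *ch25h*, a cholesterol hydroxylase gene, at 0.79 (limits 0.20 to 1.38), which did not pass. A list for fatty acid synthesis, the side of lipid synthesis that SREBP-1 controls in mammals, held 13 symbols. Of these 10 had a row, and *acly* and *fasn* had none. Of the 10 genes 1 was lower, *pnpla3* at -0.44 (adjusted p = 0.0195 from DESeq2's estimates, 0.115 with the scaled statistic and 0.0160 to 1 over all alternatives), and 0 were higher. It encodes a lipid droplet protein rather than an enzyme of fatty acid synthesis. An unadjusted p of 0.05 or less was reached by 4 of the 10, all with a log2 fold change below 0, against 13.3% of all genes. The median of that list was -0.12, and *me1* was its highest gene, at 0.34.

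Markers of the liver and intestine, organs that make and handle cholesterol, were lower in many cases. The 24 liver markers ran from *fabp10a* at -1.48 to *cps1*, at 1.63 with limits of -0.77 to 4.04. Of 23 intestine markers 10 were lower and 0 higher (median -0.38), and they ran from *lct* at -1.10 to *alpi.1* at -0.035. Over all genes 2.02% were lower and 2.95% higher. The 9 enzymes other than *hmgcra* had a median of -0.085. What part the liver and intestine transcripts had in the levels of *hmgcra*, *soat2*, *abcg5*, *tm6sf2* and *pnpla3* was not tested. Of 16 skin markers 7 were lower and 2 higher (median -0.22), and of 18 neuron markers 1 was lower and 0 higher (median -0.099). Of 15 myelin and glia markers 0 were called (median 0.038). An unadjusted p of 0.05 or less was reached by 3 of these 15, against 13.3% of all genes. Of 17 macrophage and microglia markers 5 were lower and 5, *apoeb* among them, were higher (median 0.15). The neutrophil list had 14 rows for 13 genes, since *mmp13a* has more than 1 row. Of these rows 1 was lower and 11 were higher (median 0.82). The lower row was *cpa5*, a carboxypeptidase gene that is not particular to neutrophils, at -0.38.

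In the GRCz12tu annotation, used only for which genes lie beside each other, 0 of the 10 enzymes lie on the chromosome of *nlrc3l*. Another coding gene overlaps 5 of the 10 there, and reads of overlapping genes may not be told apart, since the sources used here do not say whether counting used strand. For *hmgcra* that gene was *arsk*, at -0.30 on the log2 scale (standard error 0.32, adjusted p = 0.819 from DESeq2's estimates) and a baseMean of 18.7. For *nsdhl* it was *cetn2*, at -0.24 (adjusted p = 0.296), for *dhcr7* it was *nadsyn1*, at -0.010, and for *idi1* it was *nck1b*, at 0.13. Of 17 overlapping or adjacent coding genes with a row, 1 was called, *znf185* beside *nsdhl*, at -0.29 (adjusted p = 0.00411 from DESeq2's estimates). Over all genes 2.02% were called lower and 2.95% higher.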

How the data were processed

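The authors trimmed paired-end reads with Trimmomatic and aligned them with HISAT2. The submitters' processing notes name featureCounts, Subread 1.5.2, DESeq2, R 3.3.1 and the build GRCz10 (danRer10). The authors' deposited baseMean is a signal, the mean over 4 libraries of counts divided by size factors. The deposited fold change (mutants over siblings) is on the log2 scale, and so is its deposited standard error. The deposited statistic is a score, their quotient. The p-value and adjusted p-value are those of DESeq2 as the authors deposited them. A shorter table of called genes was not used.

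Two-sided normal p-values were recomputed from each log2 fold change and standard error and adjusted by Benjamini-Hochberg over all 19143 genes. They differed from the deposited adjusted values by at most 3.29e-07. Limits are 95% normal limits. The depth of each library is not given by the table, whose baseMean sums to 8721330 normalized counts. The p-values rest on the deposited standard errors. Among the enzymes these were 1.01 times counting noise for *nsdhl*, 1.03 times for *hmgcra* and 1.19 times for *idi1*. For the enzymes the deposited standard errors thus hold little beyond counting noise, and spread between pools adds little to them. The actual spread between these pools was not tested. Genotype means were computed as 2 libraries against 2. Levels of different enzymes were not compared, since counts depend on transcript length.

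Of 259 symbols on 15 lists, 228 had a row, 3 of them matched by identifier. The genes *apoeb* and *ggps1* are each on more than 1 list. Members and lists were chosen with earlier results of these data known. Named are all 10 enzymes, *nlrc3l*, up to 4 called genes per direction of each pathway list, and the highest and lowest of each list. Names outside this rule (*acat2* as the 1 gene at an unadjusted p of 0.05, *ebp* as the lowest once *tm6sf2* was left out, *hmgcrb*, *srebf2*, *insig1*, *ldlra*, the ends of marker lists and neighbouring genes) were chosen after values were seen. The gene *tm6sf2* stayed on the list of ring steps and was left out by name only from the counts over other genes of the chain. The symbols *acly* and *fasn* are named as lacking a row. The steps were checked on data simulated with the deposited standard errors and normal noise. Changes were planted only in genes with a standard error below the median of all genes, a range that leaves out *hmgcra*. The check therefore does not bear on the call of *hmgcra*. The alternatives tried were an empirical null, centring, a baseMean minimum of 50, Holm adjustment, Student's t with 2 degrees of freedom and adjusted p limits of 0.01 and 0.1. Sequences were not analysed here. Computation used scipy 1.17.1, pandas 2.3.3 and numpy 2.4.6 in Python 3.11.15, and plots matplotlib 3.10.9.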

Additional observations from a re-analysis of the deposited data

How the results depend on the processing

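The count of called enzymes, 1 of 10 with or without the 1.5-fold limit, was 0 under the empirical null, Holm adjustment, Student's t with 2 degrees of freedom and an adjusted p limit of 0.01. It was 1 after centring, with a baseMean minimum of 50, which left 6 enzymes, and at a limit of 0.1. The adjusted p of *hmgcra* ran from 0.00917 with the baseMean minimum to 1 with Holm adjustment, and was 0.0799 under the empirical null. Over all genes the empirical null called 536 genes, Holm adjustment 284, Student's t 0 and the limit of 0.01 618, against 951 by the test reported. Centring called 954, the limit of 0.1 called 1197, and the baseMean minimum called 903 of 13955. The share of all genes called lower was 2.04% after centring, 2.59% at the limit of 0.1 and 2.76% with the baseMean minimum. In the 7 alternatives the other 9 enzymes were not called in any setting that kept them, and the test against a 1.5-fold change called no enzyme. The median of the enzymes ran from -0.14 with the baseMean minimum to -0.095 in the test reported. The falls of *cyp7a1*, *cyp8b1* and *abcb11b* were called in 6 of 7 alternatives each, all but Student's t. The fall of *tm6sf2* and the rise of *apoeb* were also lost with Holm adjustment, and were called in 5 of 7. Counting depth limits *sqlea* and *lss* most. Leaving out a pool was not run, since values per library were not analysed here. DESeq2 size factors and a fit without a low count filter were not run for the same reason. No paired analysis was possible because the table holds no values per library. The paper does not say whether mutant and sibling pools of equal size were paired.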
